A study of Caenorhabditis elegans with 2 samples.

Results

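The 10 genes described here encode subunits of the muscle acetylcholine receptors, their chaperone and the organisers of the neuromuscular junction in Caenorhabditis elegans, and the question was where the transcription factor MEF-2 lay around them. The list was unc-29, unc-63, unc-38, lev-1, lev-8, acr-16, ric-3, nrx-1, nlg-1 and madd-4, out of 19973 nuclear protein-coding genes in the Ensembl annotation of WBcel235 (ce11). All 10 matched by symbol. The list was chosen with earlier results of these data known, so counts over it are description only. Chromatin immunoprecipitation and sequencing was done on an eGFP-MEF-2 fusion in undissected first-stage (L1) larvae of both sexes. Both libraries came from strain OP301, which carries unc-119(tm4063) III and the integrated transgene wgIs301. They are 2 biological replicates of 1 group, with no untreated, untagged or other-stage group to compare. The fusion was made from a transgene in 1 strain, and chromatin of all tissues was pooled, so a site cannot be assigned to muscle, neurons or another tissue.

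At the neuromuscular junction, motor neurons release acetylcholine onto body wall muscle, where ligand-gated ion channels of 2 kinds respond. The levamisole-sensitive receptor is built from UNC-29, UNC-38, UNC-63, LEV-1 and LEV-8, and the nicotine-sensitive receptor is a homomer of ACR-16; the endoplasmic reticulum chaperone RIC-3 assists the assembly of both. MADD-4 is a secreted organiser made by motor neurons, and NRX-1 (neurexin) and NLG-1 (neuroligin) are synaptic adhesion proteins. MEF-2, a MADS-box factor, is known in worm muscle for a retrograde signal, under control of the microRNA miR-1, by which muscle tunes transmitter release.

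Each site is the point source of a peak interval in the authors' lists, that is, the base that the peak caller gave as the centre of signal. The sequences around 6 of these sites are printed first because the results below turn on them: the strongest site of ric-3, the strongest of lev-8, the intron site of acr-16, an upstream and an intron site of nrx-1 that hold the MEF2 element, and the intron site of nlg-1 that both replicates listed. Each run is 151 bases of the ce11 forward strand, 5' to 3', centred on the pooled site, and capitals mark a full match to the MEF2 element.
ric-3, upstream, chrIV:7817977-7818127: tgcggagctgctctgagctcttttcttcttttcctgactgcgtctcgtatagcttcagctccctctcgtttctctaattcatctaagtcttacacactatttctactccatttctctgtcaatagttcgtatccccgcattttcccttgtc
lev-8, past its 3' end, chrX:11563721-11563871: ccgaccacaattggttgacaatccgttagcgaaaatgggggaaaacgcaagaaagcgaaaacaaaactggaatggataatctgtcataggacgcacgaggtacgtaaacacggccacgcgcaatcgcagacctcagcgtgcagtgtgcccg
acr-16, intron, chrV:8561450-8561600: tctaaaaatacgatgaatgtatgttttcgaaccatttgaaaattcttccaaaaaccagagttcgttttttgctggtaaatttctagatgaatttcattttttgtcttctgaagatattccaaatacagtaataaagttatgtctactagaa
nrx-1, upstream, chrV:10822401-10822551: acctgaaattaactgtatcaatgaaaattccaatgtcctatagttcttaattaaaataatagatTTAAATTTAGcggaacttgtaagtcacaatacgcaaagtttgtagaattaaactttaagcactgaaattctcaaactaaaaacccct
nrx-1, intron, chrV:10833211-10833361: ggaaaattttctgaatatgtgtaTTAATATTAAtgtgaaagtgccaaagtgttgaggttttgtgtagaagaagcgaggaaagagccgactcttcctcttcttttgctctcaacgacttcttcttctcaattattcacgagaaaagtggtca
nlg-1, intron, chrX:13629160-13629310: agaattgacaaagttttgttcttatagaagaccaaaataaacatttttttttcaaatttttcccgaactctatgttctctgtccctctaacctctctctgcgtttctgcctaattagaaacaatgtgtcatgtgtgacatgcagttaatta

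The ric-3 run is pyrimidine-rich, with 72.2% C or T on the printed strand. A skew at least as large, toward either strand, occurred in 1.17% of pooled sites and 4.09% of thresholded sites; this measure was chosen after the sequence had been seen. The lev-8 run had a GC content of 51.7%, and the nrx-1 upstream run 27.8%. Within 100 bp of the ric-3 and lev-8 pooled sites, the 2 strongest of those printed, no stretch came within 1 mismatch of the MEF2 element. The acr-16 and nlg-1 sites had a match with 1 mismatch. At most 1 mismatch was found at 57.8% of all nuclear pooled sites. For lev-8 the result depends on the centre, since the replicate 2 point source, 26 bp away, had a match with 1 mismatch within 100 bp.

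The authors deposited 4 lists on ce11. The thresholded list held 832 peaks that passed a limit on the irreproducible discovery rate, and the relaxed lists, a mixture of peaks and background, held 28182 entries for the pooled replicates, 30000 for replicate 1 and 16385 for replicate 2. The 832 thresholded peaks were the 832 strongest pooled entries, so that list adds a minimum pooled signal value of 27.4 and no separate evidence. The signal value is the caller's own score of a peak and its scale is not stated, so values were compared within a list and ranks between lists. Ranks run from 1, the strongest entry. The lists give no read counts, so depth is unknown and no test on counts could be made. All 10 windows lay on nuclear chromosomes, and each ran from 5 kb upstream to 1 kb downstream of its gene.

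Of the 10 genes, 2 had a thresholded site in the window, ric-3 and unc-63, beside 7.54% of all protein-coding genes. A relaxed site was common for any gene. All 10 genes had a pooled site (84.1% of all genes), all 10 had one in replicate 1 (86.9%), 9 had one in replicate 2 (69.9%) and the same 9 had one in both replicate lists (64.5%). The gene without a replicate 2 site was lev-1. In 7 of the 10 genes at least 1 pooled interval was overlapped by an interval of each replicate list, beside 37.7% of all genes. Among these 7, every such interval of unc-29, lev-8 and acr-16 had its site nearest to another gene's 5' end. The share of all genes likewise counts sites nearest to another gene. A site in the strongest 10% of the pooled list was found for 4 of the 10, beside 21% of all genes. Taking the 832 strongest nuclear entries of a single replicate in place of the thresholded list left ric-3 and unc-63 in replicate 1, but in replicate 2 it left 1 gene, unc-29, through a site beside tgs-1 that is described below. The shares depend on window length, whose median was 10521 bp for the 10 genes and 8027 bp for all genes.

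Closer to the annotated 5' ends, from 1000 bp upstream to 200 bp downstream, the counts were nearer to those of all genes. Only ric-3 had a thresholded site there, beside 2.93% of genes. Pooled sites stood at the 5' ends of unc-63, unc-38, ric-3 and nlg-1, 4 of 10 beside 38.5% of genes. In replicate 1 the count was again 4 (39.6% of genes), and in replicate 2 it was 2 (25.3%), ric-3 and unc-63. So at the 5' ends the genes as a list had close to the background share of relaxed sites.

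**Figure D1:**
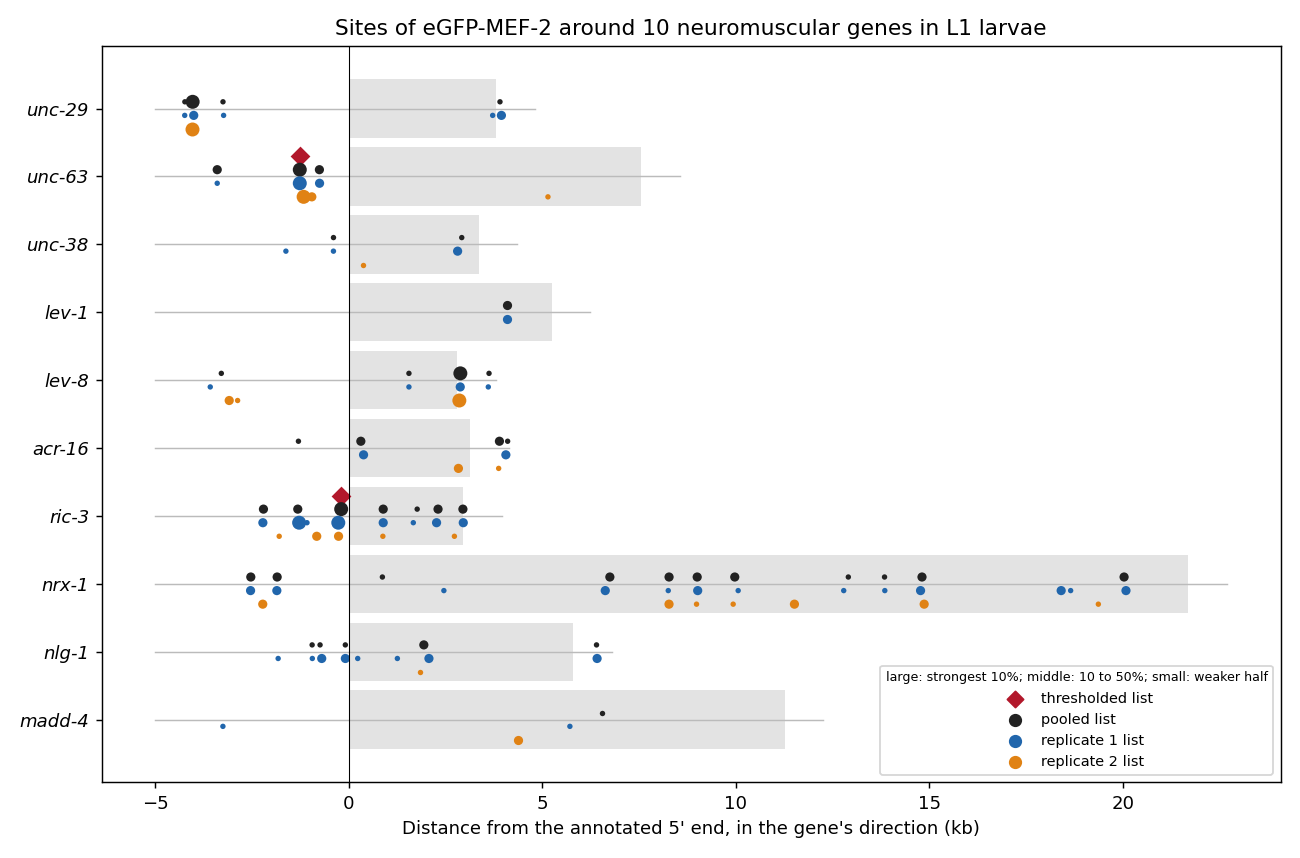
Position of every site in the windows of the 10 genes, in kb from the annotated 5' end in the direction of the gene (horizontal axis), 1 row per gene; the grey bar is the gene, the grey line the window, diamonds thresholded sites and circles pooled, replicate 1 and replicate 2 sites, larger where stronger. The 2 thresholded sites stand upstream of unc-63 and ric-3, while the strongest sites of unc-29 and lev-8 stand near the far edges of their windows.

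The windows covered 127573 bp in all and held 42 pooled sites, 3.29 per 10 kb beside 2.81 per 10 kb over the nuclear genome, a ratio of 1.17. The ratio was 1.29 in replicate 1 (49 sites) and 1.15 in replicate 2 (24 sites), and 1.95 in the thresholded list, where it rests on 2 sites. Of the 42 pooled sites, 17 lay upstream of the gene, 14 in introns, 4 in coding exons and 7 downstream. None had its point source in a UTR of the 10 genes. The nearest protein-coding 5' end, taken as the outermost annotated end of each gene, was that of the gene itself for 21 of the 42 (50%), beside 47.8% of the 51929 gene and site pairs over all genes. For the other 21 sites in the site map, the outermost 5' end of another gene was nearer. Of these, 4 in nrx-1, its strongest site among them, lay closer to an internal transcript start of nrx-1 than to C29A12.6, the gene with the nearest outermost end.

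By strength the 42 sites were spread through the whole pooled list, in shares close to the size of each class. The strongest 10% of the pooled list held 4 of them (9.52%), the strongest 25% held 11 (26.2%) and the stronger 50% held 23 (54.8%). The 4 in the strongest 10% belonged to ric-3, unc-63, lev-8 and unc-29, 1 each. The caller's highest −log10 q-value of the pooled list, 2.01, was given to these same 4 sites and to no other of the 42 (9.52%, beside 7.34%). The highest at the other sites was 1.49, 14812 bp into nrx-1. At the other printed sites it was 0.357 (acr-16), 0.344 and 0.67 (nrx-1, upstream and intron) and 0.338 (nlg-1). At the pooled site of madd-4 it was 0.0641, and the median of the pooled list was 0.236. A low value means weak support from the caller.

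**Figure D2:**
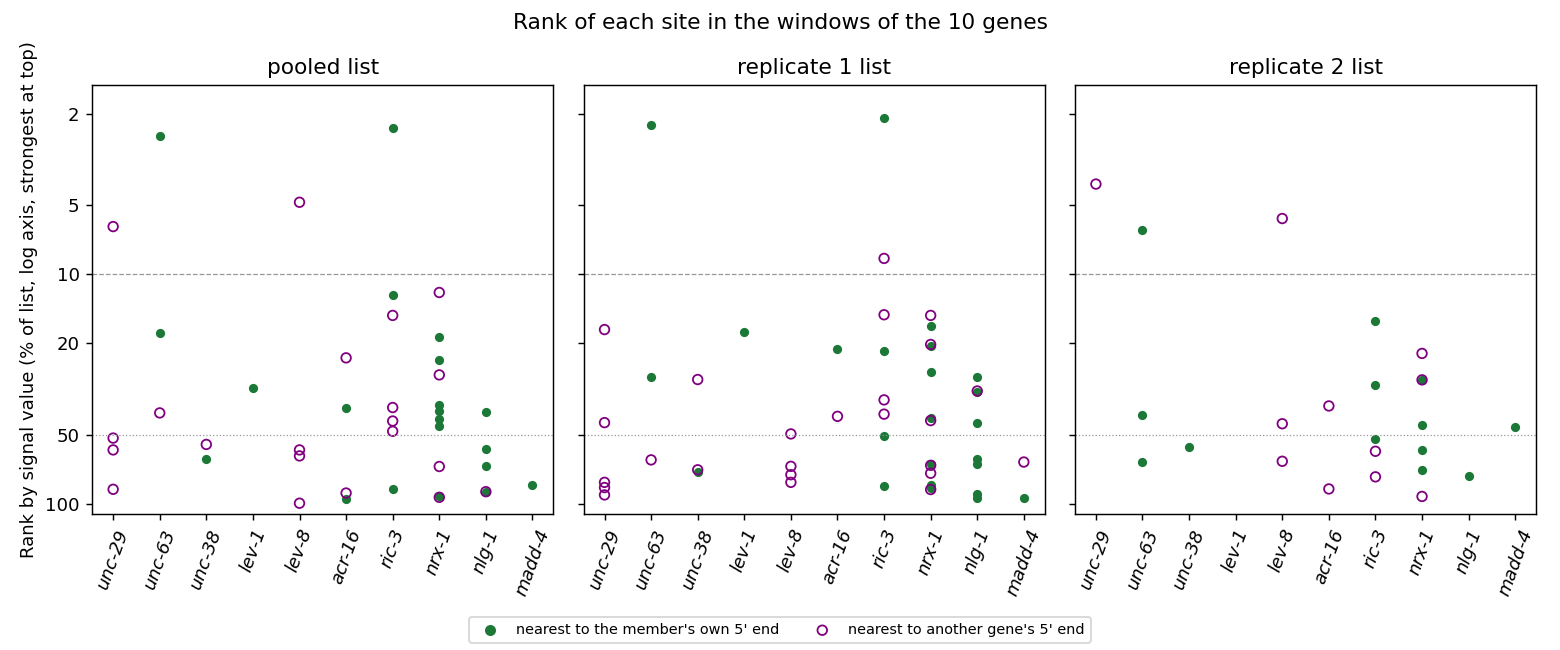
Rank of each site as a percentage of its list (vertical axis, log scale, strongest at the top) for the 10 genes in the pooled, replicate 1 and replicate 2 lists; filled points are nearest to the gene's own outermost 5' end and open points to that of another gene, and lines mark 10% and 50%. The sites of ric-3 and unc-63 that lie highest in the pooled and replicate 1 panels are nearest to their own genes, whereas those of unc-29 and lev-8 that lie highest in the pooled and replicate 2 panels are nearest to tgs-1 and trpp-9.

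Among the subunits of the levamisole receptor, unc-63, an alpha subunit (WBGene00006797, chromosome I, 5141673 to 5149226, forward strand), had the strongest site of its own. This thresholded site lay 1269 bp upstream of the 5' end and inside no other protein-coding gene, in an interval from 5140234 to 5140573. Its signal value was 29.5 in the pooled list (rank 704), 22.1 in replicate 1 (rank 674) and 7.84 in replicate 2 (rank 1047, with the point source 1170 bp upstream). The rank stood in the strongest 10% of all 3 lists, at 2.5%, 2.25% and 6.39%. A second pooled site followed 762 bp upstream (rank 5072), and replicate 2 alone had a weak site in an intron, 5145 bp into the gene (rank 10710).

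For unc-29, a non-alpha subunit (WBGene00006765, chromosome I, 8897632 to 8901435, reverse strand), all 4 pooled sites were nearer to another gene's 5' end than to its own. The strongest lay 4038 bp upstream of unc-29 but 26 bp upstream of tgs-1. It had a signal value of 18.99 in the pooled list (rank 1747), 7.15 in replicate 1 (rank 13253) and 9.77 in replicate 2 (rank 663). The replicates thus placed it very differently, in the strongest 4.05% of replicate 2 and at 44.2% of replicate 1. Of the pooled sites, the closest to the gene itself lay 102 bp past its 3' end (rank 16378), and replicate 2 had no interval there.

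The third subunit gene on this chromosome, unc-38, an alpha subunit (WBGene00006774, 4897620 to 4900974, reverse strand), had 2 weak pooled sites. They lay in a coding exon 2917 bp into the gene (signal value 7.65, rank 15507) and 398 bp upstream (signal value 7.15, rank 17946). Replicate 1 listed both, at ranks 8609 and 21850, and replicate 2 listed neither, its only site being in an intron 356 bp into the gene (rank 9250). A thresholded site lay outside the window, 7273 bp upstream of unc-38 with a signal value of 31.65 (rank 592), and it stood 1408 bp from the 5' end of pgal-1, the nearest gene.

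The remaining subunits of this receptor had no site in the strongest 10% that was nearest to their own 5' end. In lev-1, a non-alpha subunit (WBGene00002974, chromosome IV, 13174157 to 13179395, reverse strand), the only pooled site lay in a coding exon 4076 bp into the gene. Its signal value was 9.57 (pooled rank 8828), replicate 1 had it at rank 5334, and replicate 2 had no site in the window. In lev-8, an alpha subunit (WBGene00002975, chromosome X, 11560915 to 11563707, forward strand), the strongest of 4 pooled sites lay 89 bp past the 3' end and 127 bp upstream of trpp-9. Its signal value was 21.4 in the pooled list (rank 1369), 6.83 in replicate 1 (rank 14835) and 8.35 in replicate 2 (rank 937).

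Like the site beside tgs-1, the site beside trpp-9 was strong in replicate 2 (5.72% of the list) and of middle rank in replicate 1 (49.5%). Of the other lev-8 sites, the only pooled site inside the gene was in an intron 1552 bp from the 5' end, at rank 17398, and replicate 2 did not list it.

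The gene of the nicotine-sensitive receptor, acr-16 (WBGene00000055, chromosome V, 8561216 to 8564345, forward strand), had 4 pooled sites. The strongest, with a signal value of 10.7 (rank 6508), lay 762 bp past the 3' end in a coding exon of F25G6.8. The strongest that was nearest to acr-16 itself lay 309 bp into the gene, in an intron bounded by exons that end at 8561427 and start at 8561694, and its sequence is printed above. It had a signal value of 8.88 in the pooled list (rank 10740) and 9.40 in replicate 1 (rank 6329), and replicate 2 had no interval there. A weaker pooled site 1304 bp upstream (rank 26709) was in neither replicate list. Replicate 2 alone listed a site in a coding exon 2831 bp into the gene, nearer to the 5' end of F25G6.8. With a signal value of 3.44 (rank 6132), it was the strongest replicate 2 site in this window. Both pooled sites past the 3' end were overlapped by the same interval of each replicate, so they do not count as separate observations.

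The chaperone gene ric-3 (WBGene00004363, chromosome IV, 7818251 to 7821195, forward strand) had the strongest site of the 10 genes and the most sites per length, 7 pooled sites or 7.83 per 10 kb. The strongest lay 199 bp upstream, in an interval from 7817882 to 7818221 that is centred on the pyrimidine-rich run printed above. Its signal value was 30.4 in the pooled list (rank 647), 22.75 in replicate 1 (rank 626) and 5.02 in replicate 2 (rank 2601). The replicate point sources lay 274 and 267 bp upstream, so both libraries placed it within 100 bp of the pooled position, yet it stood at 2.09% of replicate 1 and 15.9% of replicate 2.

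The other ric-3 sites were weaker. The next, with a signal value of 13.8 (rank 3480), lay 887 bp into the gene in an intron, and was found at ranks 6438 and 8539 in replicates 1 and 2. Upstream, sites at 2208 bp (rank 4255) and 1321 bp (rank 13591) were nearer to cdgs-1, which encodes a CDP-diacylglycerol synthase, and only replicate 1 had intervals there, at ranks 4491 and 2558. A replicate 2 site 831 bp upstream (rank 4951) overlapped a replicate 1 interval whose point source lay 1083 bp upstream (rank 15175), with no pooled site between them, and replicate 2 alone had a site 1801 bp upstream (rank 9644).

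Among the organisers, nrx-1 (WBGene00007799, chromosome V, 10825011 to 10846703, forward strand) is the longest of the 10 genes, with 11 pooled sites or 3.97 per 10 kb. None passed the threshold. The strongest lay 14812 bp into the gene, in the intron between the exons ending at 10838160 and starting at 10841857, with a signal value of 13.9 in the pooled list (rank 3382), 9.54 in replicate 1 (rank 6073) and 4.34 in replicate 2 (rank 3616). It stood at 12% of the pooled list, 20.2% of replicate 1 and 22.1% of replicate 2, so both replicates placed it at about the same height.

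A single intron of nrx-1, 3182 bp long and bounded by exons that end at 10832348 and start at 10835531, held 3 pooled sites. They lay 8275, 9002 and 9973 bp into the gene with pooled ranks of 6623, 5312 and 12891, and both replicates had a point source within 150 bp of each. The last stood 642 bp before an internal transcript start, annotated 10615 bp into the gene. A further intron site, 20035 bp into the gene (rank 7725), stood 709 bp before the internal start at 20744 bp, and replicate 2 had no interval there. An intron site 11515 bp into the gene was listed in replicate 2 alone (rank 4723). No pooled site of nrx-1 lay within 1000 bp upstream of its outermost 5' end, and the nearest upstream sites stood at 1854 and 2535 bp (ranks 10398 and 11102).

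In nlg-1 (WBGene00006412, chromosome X, 13625373 to 13631172, reverse strand), 5 pooled sites were all below the stronger 25% of the list. The strongest, with a signal value of 8.74 in the pooled list (rank 11194), lay 1937 bp into the gene in an intron, 277 bp before an internal transcript start annotated at 2214 bp. It was the only pooled nlg-1 site overlapped in both replicates, at rank 9771 in replicate 1 and rank 12305 in replicate 2. The replicate point sources lay on opposite sides of the pooled one, 237 bp from each other. Upstream, sites at 92, 745 and 950 bp had pooled ranks of 19214, 24908 and 16290, and only replicate 1 listed them.

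The window of madd-4 (WBGene00009958, chromosome I, 8931033 to 8942292, reverse strand) was the weakest in the pooled and replicate 1 lists, though not in replicate 2. Its only pooled site lay in an intron 6551 bp into the gene, with a signal value of 6.27 (rank 23268), and neither replicate had an interval that overlapped it. Replicate 1 listed sites 5712 bp into the gene and 3256 bp upstream (ranks 28215 and 19678), and replicate 2 listed a site 4374 bp into the gene (rank 7555). No position was shared by the lists, at a density of 0.579 pooled sites per 10 kb.

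The 2 replicates agreed on the place of only some sites. Of the 42 pooled intervals, 17 were overlapped by at least 1 bp in both replicate lists (40.5%, beside 23.5% of all pooled entries), 22 in replicate 1 alone (52.4%, beside 57.4%), 0 in replicate 2 alone (beside 8.32%) and 3 in neither (7.14%, beside 10.8%). Overlap can be by few bases, and 1 replicate interval can overlap 2 pooled ones. This held for the acr-16 sites past the 3' end. It also held for the unc-29 sites 4038 and 4239 bp upstream, which share the replicate 2 interval of rank 663. With both replicate point sources required within 150 bp of the pooled one, 10 sites remained (23.8%, beside 15.8%): 1 each in unc-29, unc-63, lev-8 and nlg-1, 2 in ric-3 and 4 in nrx-1. The nrx-1 site 2535 bp upstream was not among them, since the replicate 2 point source lay 309 bp away.

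**Figure D3:**
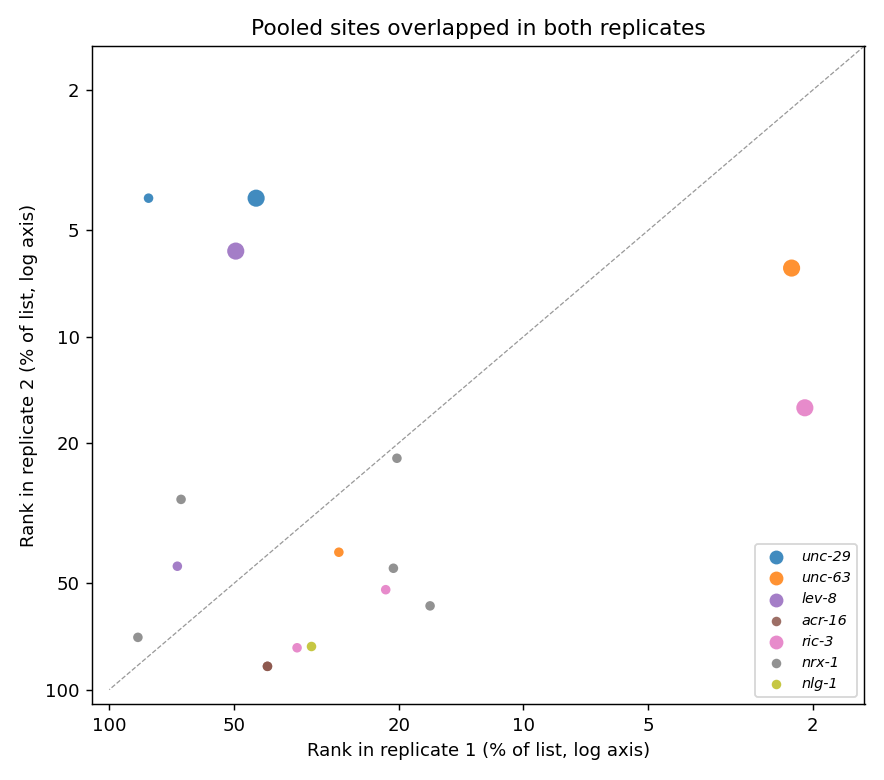
Ranks in replicate 1 (horizontal axis) and replicate 2 (vertical axis) of the 17 pooled sites overlapped in both replicate lists, as percentages of each list on log axes with the strongest at the right and top, coloured by gene, large where the pooled site is in the strongest 10%. The 2 acr-16 points coincide, and the 2 unc-29 points share the same replicate 2 interval. The large points of unc-63 and ric-3 are in the strongest 10% of replicate 1, while those of unc-29 and lev-8 are in the strongest 10% of replicate 2 only.

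The 4 strongest sites fell into 2 kinds in the plot of replicate ranks. Those of ric-3 and unc-63, which were thresholded and nearest to their own genes, ranked higher by percentage in replicate 1. Those of unc-29 and lev-8, which lay just upstream of tgs-1 and trpp-9, ranked far higher in replicate 2. The replicate lists differed in length, in median interval width (344 bp in replicate 1 and 284 bp in replicate 2) and in median signal value (6.8 and 3), and the part of these differences in the ranks was not tested.

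The strongest site in the window gave an order of the genes. In the pooled list it ran ric-3 (30.4), unc-63 (29.5), lev-8 (21.4), unc-29 (18.99), nrx-1 (13.9), acr-16 (10.7), lev-1 (9.57), nlg-1 (8.74), unc-38 (7.65) and madd-4 (6.27). The median over all genes with a pooled site was 10.3, so 6 of the 10 stood above it. A pooled site as strong or stronger was found in the windows of 6.0% of all genes for ric-3, 6.44% for unc-63, 11.7% for lev-8, 14.4% for unc-29 and 24.4% for nrx-1. For madd-4 the share was 78.7%.

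The order was not the same in the replicates. Of the 9 pairs of neighbours in this order, 6 kept it in replicate 1. In replicate 2 the 2 pairs with lev-1 could not be compared, since lev-1 had no site there, and 2 of the other 7 kept it. The order of nrx-1 over acr-16 was kept in both, and the other 6 compared pairs changed order in at least 1 replicate. In replicate 1, ric-3 and unc-63 led (as strong or stronger in 5.32% and 5.79% of genes), while lev-8 stood at 66.1%. In replicate 2, unc-29 (6.53%), lev-8 (8.81%) and unc-63 (9.68%) led, and ric-3 stood at 20%. Only unc-63 was among the highest 10% of genes in all 3 lists.

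**Figure D4:**
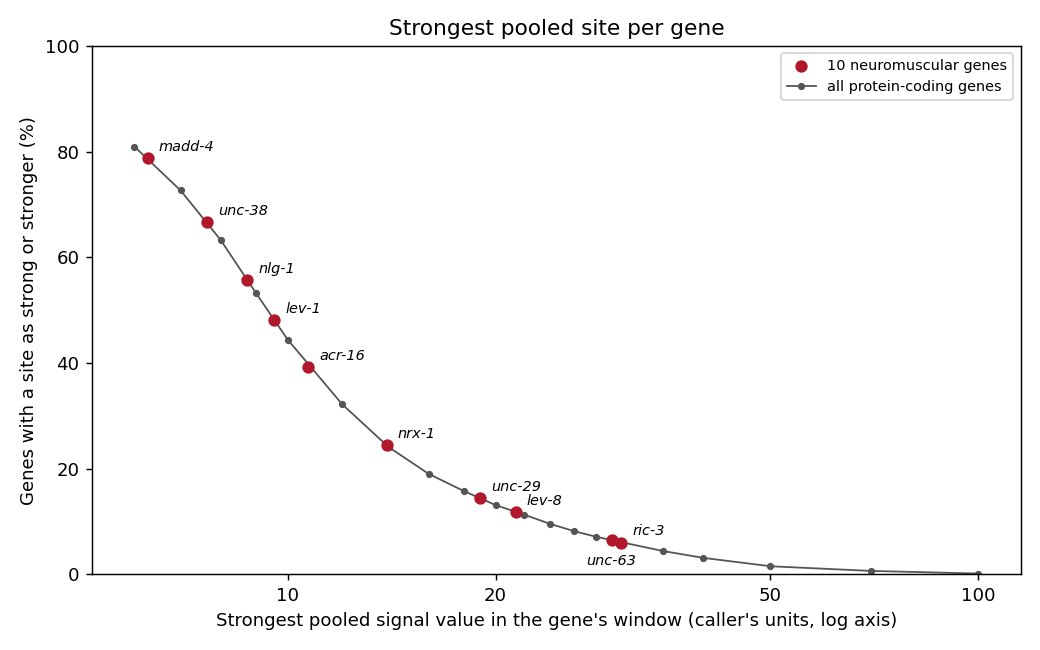
Strongest pooled signal value in each gene's window (horizontal axis, caller's units, log scale) against the percentage of all protein-coding genes with a pooled site as strong or stronger (vertical axis); red points are the 10 genes and the grey line all genes. The 10 genes are spread from 6.0% for ric-3 to 78.7% for madd-4.

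The MEF2 element, the A/T-rich 10-base site bound by MEF2 family factors, was searched on both strands within 100 bp of each site. It was found at 3 of the 42 pooled sites (7.14%), beside 2003 of 28155 nuclear pooled sites (7.11%). A form called strict here, CTA and TAG with any 4 bases between, was at 0 of 42, beside 2.44%. A match with at most 1 mismatch was at 22 of 42 (52.4%), beside 57.8%. Neither thresholded site held the element, nor was either within 1 mismatch of it, beside 4.96% and 33.7% of the 806 nuclear thresholded sites. The share of element matches at the 42 sites was thus that of the list, and the letters were absent from the windows of the strongest sites.

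Of the 3 pooled sites with the element, 2 were in nrx-1. The site 2535 bp upstream held TTAAATTTAG at chrV:10822465-10822474, with the centre of the element 6 bp from the pooled point source, and the replicate 1 point source lay on it. The intron site 8275 bp into the gene held TTAATATTAA at chrV:10833234-10833243, 48 bp from the pooled point source, and within 100 bp of the point source in both replicates as well. The element at the remaining site, 974 bp past the 3' end of acr-16, lay 54 bp from a point source in the 3' UTR of F25G6.9. In the replicate lists alone, 4 of 49 sites held the element in replicate 1 (8.16%, beside 7.51% of that list) and 2 of 24 in replicate 2 (8.33%, beside 5.63%).

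The entries next to ric-3 and unc-63 by pooled signal value were the thresholded peaks most like them in strength. Beside ric-3 at rank 647 stood those nearest to C34B4.2 and F21D12.3 (ranks 645 and 646) and to R01E6.2 and T13C5.6 (ranks 648 and 649). Their replicate 2 ranks ran from 398 to 4290, so a replicate 2 rank of 2601, as at ric-3, was within their range. Beside unc-63 at rank 704 stood those nearest to ncs-2 and hint-3 (ranks 702 and 703) and to chmp-7 and dip-2 (ranks 705 and 706), with replicate 2 ranks from 318 to 1413.

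Of 58 related genes on 5 lists, 52 had a pooled site in the window (89.7%) and 6 a thresholded site (10.3%), beside the 84.1% and 7.54% of all genes. At the 5' end, 24 of the 58 had a pooled site, beside 38.5% of all genes: 6 of 9 assembly and clustering genes, 5 of 23 other subunits, 0 of 7 genes of acetylcholine synthesis, transport and breakdown, 7 of 11 positioning genes and 6 of 8 genes of the retrograde signal. Among 9 genes of receptor assembly and clustering, 2 had a thresholded site. That of nra-2, an endoplasmic reticulum protein related to nicalin, lay 217 bp upstream with a signal value of 55.03 (rank 142), and that of lev-9, a secreted scaffold of the levamisole receptor, lay 4853 bp upstream with 69.5 (rank 83), nearest to cest-16 (3357 bp). The next were unc-50, needed for trafficking of the levamisole receptor (15.4), and emc-6, a subunit of the endoplasmic reticulum membrane complex (13.5), whose sites were nearest to unc-69 (23 bp) and mrps-24 (96 bp). Both thresholded sites of this list had a higher pooled signal value than any site of the 10 genes.

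Of 23 other receptor subunit genes, 18 had a pooled site and 0 a thresholded site. The highest signal values were 14.95 at des-2, 14.3 at acr-17, 13.8 at acr-7 and 13.5 at acr-18. Of these, only the acr-7 site was also in replicate 2. The acr-17 and acr-18 sites lay downstream of the genes, nearest to F53E10.1 and glb-14. All 7 genes of acetylcholine synthesis, transport and breakdown had a pooled site in the window, and their highest values were 11.35 at the choline transporter gene cho-1, 11.04 at the acetylcholinesterase gene ace-1, 10.7 at the choline acetyltransferase gene cha-1 and 9.95 at the acetylcholinesterase gene ace-3. The ace-1 site was nearest to ace-1 itself, and the others to C48D1.5, ltah-1.2 and hot-7.

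The genes listed under receptor positioning at the junction, which include the receptor gene unc-49, had a pooled site in 11 of 11 windows and 0 thresholded sites. They were led by unc-49, which encodes the GABA-A receptor (23.2), unc-40, the netrin receptor (20.3), the Wnt ligand gene cwn-2 (18.4) and the Dishevelled gene dsh-1 (17.4). The unc-49 site lay past the gene's 3' end, nearest to hpd-1 (2036 bp), and the cwn-2 site was nearest to ipla-7 (1328 bp). The related lists, like the 10 genes, were chosen with earlier results of these data known, so their shares are description only. On the list of the MEF-2 retrograde signal and its regulators, 4 of 8 genes had a thresholded site. They were mef-2 itself (427.7), the class IIa histone deacetylase gene hda-4 (103.7), the L-type calcium channel gene egl-19 (43.3, with its site 3307 bp upstream at rank 272 and 3202 bp from C48A7.16, the nearest gene) and the kinase gene kin-29 (32.4). The value at mef-2 was measured in a strain with a mef-2 transgene. Against these, the highest value in the windows of the 10 genes, 30.4 at ric-3, was lower than all 4.

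**Figure D5:**
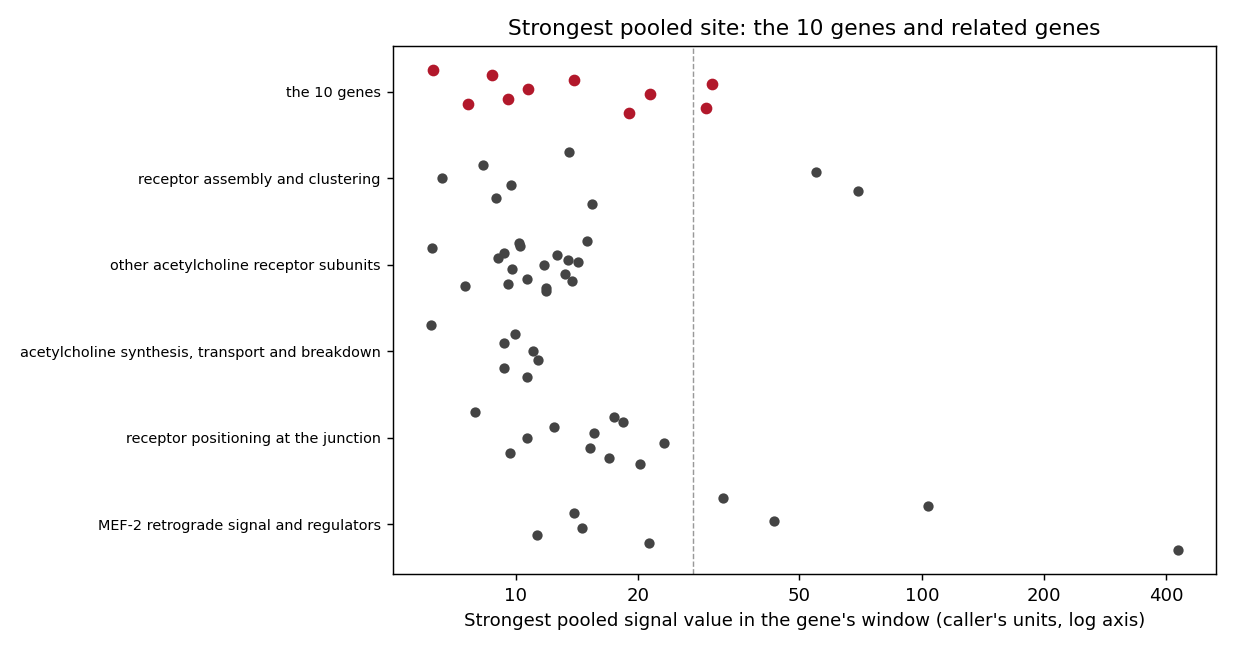
Strongest pooled signal value in the window (horizontal axis, caller's units, log scale) for the 10 genes, in red at the top, and for the genes of 5 related lists, 1 point per gene with a pooled site, offset vertically for display; the dashed line marks 27.4, the lowest thresholded value. Of the 10 genes, ric-3 and unc-63 are right of the line, as are 2 assembly and clustering genes and 4 genes of the MEF-2 retrograde signal list.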

How the data were processed

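Per the labels, 2 biological replicate libraries of 150 to 350 bp fragments were made from whole OP301 L1 larvae. Relaxed peaks were called with a control library, per the deposited file records, and the pooled and replicate lists together gave the thresholded list. The aligner, peak caller, versions and limit on the irreproducible discovery rate were not given in the sources used here. The authors' lists give a signal value per peak on an unstated scale, a −log10 q-value (at most 2.01 in the pooled list), and the offset of the point source, which was added to the interval start to give the site. Depth is unknown. The control was not used here. The ce10 lists were not used.

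Sites were placed with Ensembl release 115 and the WBcel235 genome, using Python 3.11.15, pandas 2.3.3, numpy 2.4.6 and matplotlib 3.10.9; no interval ran past a chromosome end of that build. Windows added 5000 bp before and 1000 bp after the annotated gene. Entries were called overlapping from 1 bp. The main counts were read beside the same share over all nuclear protein-coding genes or all nuclear sites, with no test. Some alternative settings, and the count of genes with a site nearest to their own 5' end, have no such share here. The gene and 5' windows, the counting of sites in a window and the element pattern were checked on simulated data.

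The members and lists were chosen with earlier results of these data known. Named genes were the 10 members, up to 4 genes per related list with the highest pooled signal value and any with a thresholded site, the gene nearest to a described site, and the 2 thresholded entries on each side of a member's. The list names mir-1 and unc-74 matched no protein-coding gene. Alternatives were other windows, interval overlap, single replicates, the stronger 50% of each list, other 5' windows, and narrower or strict elements; the count of genes with a site nearest to their own 5' end was added after the data had been seen.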

Additional observations from a re-analysis of the deposited data

How the results depend on the processing

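Of 34 alternatives, 25 left a result within 1.5 times its value, or within 1 SD between the replicate lists (0.0947) for the density ratio, and 9 moved it. The 2 genes with a thresholded site ranged from 1 to 2 when the 832 strongest entries of 1 replicate were used (unc-29 in replicate 2, ric-3 and unc-63 in replicate 1), and came to 0 in the stronger 50% of the list. The 4 genes with a pooled site at the 5' end ranged from 2 to 4 in single replicates and came to 2 in the stronger 50%. The density ratio of 1.17 was 1.28 with 10 kb upstream, 1.29 in the stronger 50% and 1.15 to 1.29 in single replicates. The 3 pooled sites with the MEF2 element came to 1 within 50 bp and 0 in the strict form. The cause of these changes was not tested. Genes with a pooled site nearest to their own 5' end numbered 8, and 6 to 8 under the alternatives. The share of all genes with such a site is not given here, so this count has no background to be read beside. With 10 kb upstream, 3 genes had a thresholded site. The gene added was unc-38, through the site 7273 bp upstream that was nearest to pgal-1. The share of all genes for this longer window is not given here. No paired analysis was possible because there is 1 group. Values at the low end of the relaxed lists lie among entries that the authors list with background, and the depth that would limit them is unknown.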
